A study of Mus musculus with 12 samples.

Results

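RNA levels of 37 genes of glycolysis and of the pathway of the oxygen-regulated factor HIF1 were examined in mouse regulatory T cells (Treg). The genes were taken by symbol and make up 37 of the 23337 gene symbols counted. Of these genes, 36 were found under their own symbol and Pkm under its older symbol Pkm2. They comprised 24 genes of glucose uptake, glycolysis and lactate handling, 5 regulators of HIF (Hif1a, Arnt, Egln1, Egln3 and Vhl) and 8 other targets of HIF (Bnip3, Bnip3l, P4ha1, P4ha2, Ankrd37, Kdm3a, Mxi1 and Higd1a). The mice were C57BL/6, 8 weeks old, and carried Foxp3-Cre with a GFP reporter, which acts in cells that express Foxp3. The KO label stands for Hrd1 flox/flox and the WT label for Hrd1 +/flox, so WT-labelled cells may have lost a copy of Hrd1 too, and no group carried Hrd1 without a floxed allele. Hrd1, listed as Syvn1, encodes a ligase of the endoplasmic reticulum that tags misfolded proteins with ubiquitin. Induced Treg (iTreg) were CD4 T cells polarised over 5 days in IL-2 plus TGF-beta, of which the GFP-positive cells were isolated. Natural Treg (nTreg) were sorted as CD4+GFP+ cells straight from spleen and lymph nodes. The groups iTreg KO, iTreg WT, nTreg KO and nTreg WT had 3 libraries each, 12 in all.

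Glycolysis splits glucose into pyruvate. Cells that divide fast turn much of the pyruvate into lactate and export it, and activated T cells are known to raise their glucose transporters and glycolytic enzymes. HIF1 is a pair of proteins, the alpha subunit from Hif1a and the beta subunit from Arnt. In the presence of oxygen, prolyl hydroxylases such as those of Egln1 and Egln3 mark the alpha subunit, and the ligase subunit encoded by Vhl then has it degraded. When the alpha subunit is spared, HIF1 binds short DNA motifs and activates glycolytic genes along with genes of mitophagy, collagen modification and histone demethylation. Because the alpha subunit is controlled largely as a protein, the RNA of Hif1a does not measure HIF1 activity.

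Library totals ran between 6763458 and 15462894 counts. The Treg marker genes were high in every library, with a summed level of 3797 to 4928 CPM (read counts scaled to library size with TMM factors) in iTreg KO, 4367 to 5087 in iTreg WT, 4338 to 4572 in nTreg KO and 4445 to 4891 in nTreg WT. The total count of Syvn1 did not check the KO label, since a gene total does not separate exons inside and outside the deletion. It stood at 146, 137 and 130 CPM in nTreg KO, against 73.7, 87.2 and 75.5 CPM in nTreg WT. In iTreg it was 54.6, 73.1 and 63.1 CPM in KO, against 61.6, 72.2 and 101 CPM in WT. The cause of these levels was not tested. Of 9 macrophage markers, the summed level was 42.3 to 502 CPM in nTreg KO and 56.3 to 228 CPM in nTreg WT, highest in the libraries numbered 2, and at most 5.92 CPM in iTreg. Xist RNA was present in nTreg KO and WT replicate 3 and in iTreg WT replicate 2. In iTreg, the KO and the WT library numbered 3 stood apart in many of the genes described here, and results that rest on them are also given without them. Since no label states that the replicates are separate animals, p-values here cover only the spread between libraries, which may be technical.

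iTreg held far more RNA of glycolysis genes than nTreg, with either label. The 24 glycolysis genes took up 1.27%, 1.63% and 0.786% of all counts in iTreg KO, 1.66%, 1.82% and 0.835% in iTreg WT, 0.295%, 0.269% and 0.277% in nTreg KO, and 0.285%, 0.255% and 0.271% in nTreg WT. Every iTreg library thus lay above every nTreg library, while the KO and WT ranges overlapped within each cell type. These sums held 1 read of Eno1 in all and Gapdh at only 3.56 to 22.7 CPM. Both genes share sequence with other genes, as described below, so the sums may leave out part of the pathway. In bulk samples, more cells that express a gene and more RNA per cell cannot be told apart.

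In edgeR's quasi-likelihood test over 12038 genes, 29 of the 36 genes tested passed an adjusted p of 0.05 for iTreg WT against nTreg WT, of which 27 were higher and 2 lower. Of all genes tested, 65.2% passed, 34.8% higher and 30.4% lower. For iTreg KO against nTreg KO, 24 of the 36 rose and 1 fell, against 61.9% of all genes, 32.1% higher and 29.8% lower. The median log2 fold change of the 36 was 2.17 for the WT label and 1.65 for the KO label, with 0.05 and 0.01 over all genes tested. The libraries of iTreg WT and nTreg WT did not overlap in 27 of the 36, against 71.3% of all genes, and those of iTreg KO and nTreg KO in 25, against 66.9%. Eno1, encoding an enolase, was not tested, with 1 read in iTreg WT replicate 1 and none elsewhere. Exact stretches of 50 bases of its coding transcripts occurred in other genes for 49.5%, most often in Eno1b, which the files list as Gm5506. Eno1b itself rose by 2.35 (SE 0.26, adjusted p = 7.74e-06) in iTreg WT against nTreg WT. The cell types also differed in origin, culture and division, which cannot be told apart in these groups. The summed level of 20 proliferation markers was 7299 to 8120 CPM in iTreg KO, 8344 to 9707 CPM in iTreg WT, 1276 to 1633 CPM in nTreg KO and 945 to 1338 CPM in nTreg WT, and its part in the result was not tested.

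**Figure D1:**
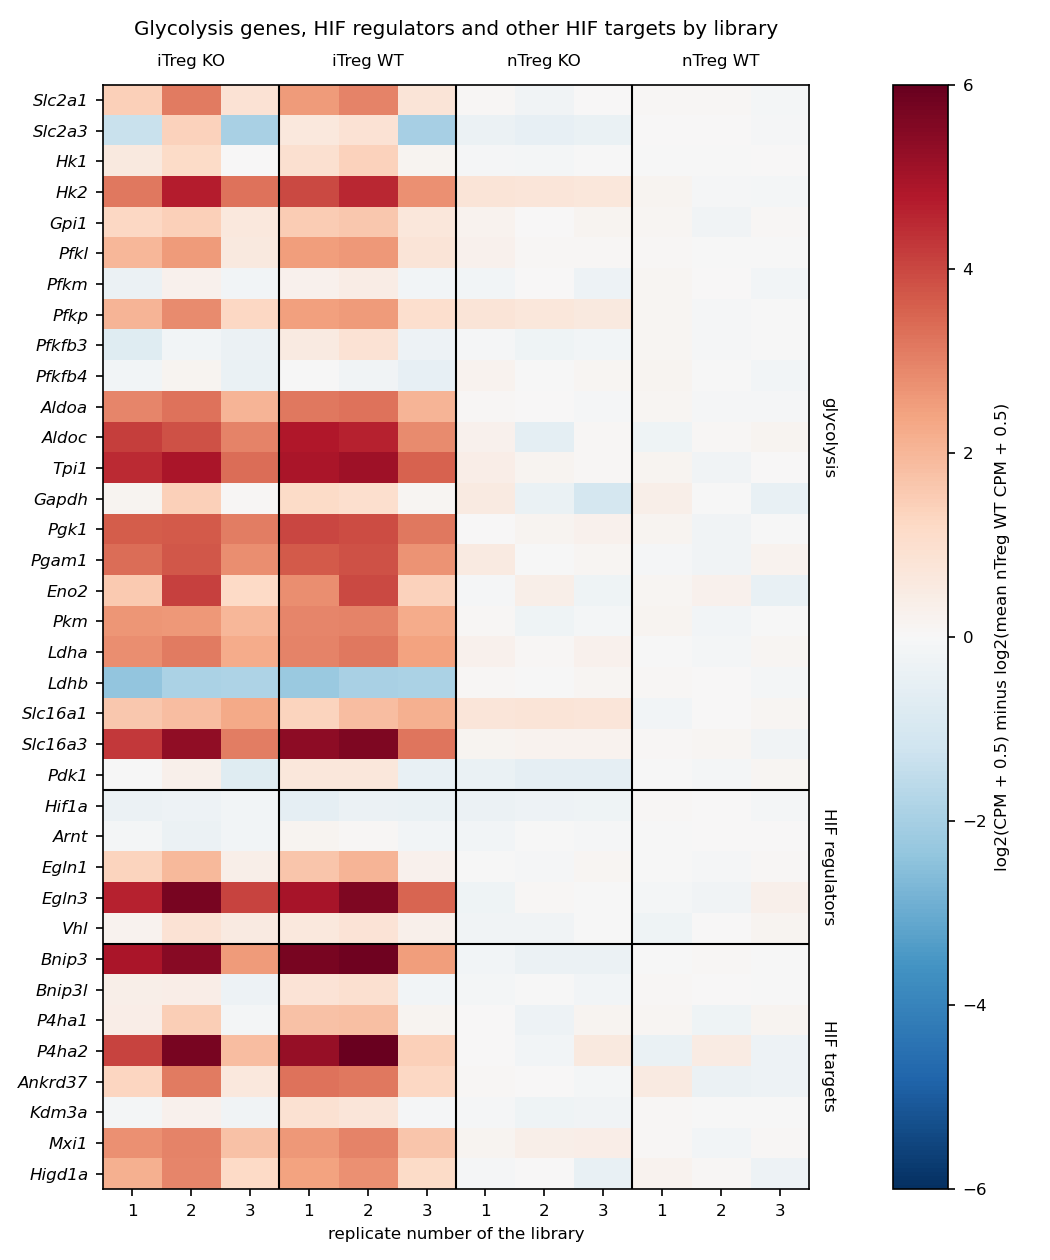
Level of the 36 genes tested (rows, by role) in each of the 12 libraries (columns, 3 per group), as log2(CPM + 0.5) minus the log2 of the nTreg WT mean CPM + 0.5; red is above and blue below that mean. Most rows are red across iTreg and paler in the iTreg KO and iTreg WT libraries numbered 3, while Ldhb is blue in all 6 iTreg libraries.

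The largest log2 fold changes of iTreg WT over nTreg WT were those of P4ha2, a collagen prolyl hydroxylase (6.38, SE 1.43, adjusted p = 0.00191), Bnip3, a mitophagy receptor (5.46, SE 0.93, adjusted p = 0.000278), Slc16a3, the lactate exporter MCT4 (5.12, SE 0.67, adjusted p = 3.31e-05), and Egln3 (4.96, SE 0.55, adjusted p = 9.71e-06). Each rose in iTreg KO over nTreg KO too, by 5.49, 5.27, 4.34 and 5.07 in that order. Their promoters and that of Slc16a1, the lactate transporter MCT1, are shown to set these letters beside the largest differences between the cell types and beside the gene of smallest adjusted p in nTreg KO with the replicate block described further on; they were chosen after their values were seen. Each sequence is the 250 bases before the RefSeq start site of GRCm38.p6, read 5′ to 3′ along the gene's strand, with capitals marking the HIF-binding cores ACGTG and GCGTG on either strand (read as CACGT and CACGC on the other). The windows are chr11:54100674-54100923 on the plus strand for P4ha2, chr7:138909507-138909756 on the minus strand for Bnip3, chr11:120948817-120949066 on the plus strand for Slc16a3, chr12:54203875-54204124 on the minus strand for Egln3 and chr3:104638414-104638663 on the plus strand for Slc16a1.
P4ha2: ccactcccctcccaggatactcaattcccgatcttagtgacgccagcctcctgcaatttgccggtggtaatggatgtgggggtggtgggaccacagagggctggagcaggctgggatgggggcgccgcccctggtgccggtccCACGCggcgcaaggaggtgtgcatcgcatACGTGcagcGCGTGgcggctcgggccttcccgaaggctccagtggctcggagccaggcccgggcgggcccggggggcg
Bnip3: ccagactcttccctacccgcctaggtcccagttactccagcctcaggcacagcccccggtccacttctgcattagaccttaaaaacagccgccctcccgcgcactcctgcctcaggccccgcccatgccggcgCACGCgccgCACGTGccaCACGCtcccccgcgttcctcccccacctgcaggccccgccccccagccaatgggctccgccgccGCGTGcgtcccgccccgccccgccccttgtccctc
Slc16a3: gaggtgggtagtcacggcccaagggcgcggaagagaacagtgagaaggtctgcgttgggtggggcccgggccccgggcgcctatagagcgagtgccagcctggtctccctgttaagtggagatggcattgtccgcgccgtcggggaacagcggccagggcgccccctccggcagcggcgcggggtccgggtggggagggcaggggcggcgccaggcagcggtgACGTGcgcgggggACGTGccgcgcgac
Egln3: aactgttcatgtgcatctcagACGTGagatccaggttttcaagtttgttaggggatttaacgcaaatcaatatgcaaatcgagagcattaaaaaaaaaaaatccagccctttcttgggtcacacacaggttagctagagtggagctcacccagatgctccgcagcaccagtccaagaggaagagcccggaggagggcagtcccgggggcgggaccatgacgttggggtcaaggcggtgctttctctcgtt
Slc16a1: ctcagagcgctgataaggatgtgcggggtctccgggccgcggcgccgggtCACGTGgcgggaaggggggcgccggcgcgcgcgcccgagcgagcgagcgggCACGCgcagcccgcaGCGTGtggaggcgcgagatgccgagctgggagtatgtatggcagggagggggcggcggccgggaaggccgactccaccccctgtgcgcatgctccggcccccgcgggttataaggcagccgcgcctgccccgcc

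The P4ha2 window held 3 cores, Bnip3 5, Slc16a3 2, Egln3 1 and Slc16a1 4, where a run of CACGTG counts as 2 because both strands read ACGTG. The same 250 bases were searched at every RefSeq start site at hand, 52 sites for 35 of the 37 genes, and Bnip3l and Slc2a3 were not matched. At least 1 core was present for 31 of the 35 genes (88.6%), against 41.5% of the 27025 genes of the table, and in 40 of the 52 windows (76.9%), against 38.6% of 32851 windows. Eno2, Gpi1, Tpi1 and Vhl had none of these letters in the windows searched. Of the motifs tied to stress of the endoplasmic reticulum, CCACG, part of the ER stress element, occurred in 42.3% of the 52 windows against 28.3% of all. The letters TGATGNA, part of the site of ATF4 with its C/EBP partner, occurred in 1.92% against 10.4%. CCACG and the HIF core GCGTG were searched on both strands and can share bases with the other motifs. A match is a description of these letters, not a binding site. All genes with a RefSeq start site at hand served as comparison, whether or not their RNA was tested here. Base composition and the number of windows per gene were not matched between these sets. What lies behind the higher share of HIF cores was therefore not tested.

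Glucose enters T cells through transporters such as GLUT1 and GLUT3. Slc2a1, encoding GLUT1, had 165, 526 and 109 CPM in iTreg KO, 357, 478 and 102 in iTreg WT, 63.8, 52.0 and 60.3 in nTreg KO, and 62.8, 62.4 and 55.6 in nTreg WT. It rose in iTreg WT over nTreg WT by 2.38 (SE 0.58, adjusted p = 0.00324), and every iTreg library lay above every nTreg library. Slc2a3, encoding GLUT3, ranged between 37.2 and 382 CPM in iTreg KO and 36.5 and 272 CPM in iTreg WT, on both sides of the nTreg libraries (106 to 114 CPM in KO, 140 to 151 CPM in WT), and was not called (0.30, adjusted p = 0.749). Of the hexokinases that trap glucose, Hk2 had 82.9, 250 and 90.5 CPM in iTreg KO, 146, 216 and 63.4 in iTreg WT, 15.5, 15.2 and 14.8 in nTreg KO, and 10.2, 8.49 and 8.1 in nTreg WT. It rose by 4.0 (SE 0.51, adjusted p = 2.97e-05) in WT and by 3.22 in KO, while Hk1, which most tissues express, rose by 0.93 (SE 0.29, adjusted p = 0.013) and 0.74.

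Phosphofructokinase carries out the committed step of glycolysis. Pfkl and Pfkp, subunits of phosphofructokinase, rose by 2.18 (SE 0.48) and 2.16 (SE 0.41) in iTreg WT over nTreg WT and by 1.79 and 1.51 in iTreg KO over nTreg KO. The muscle-type subunit Pfkm (0.22, adjusted p = 0.331) and the regulatory enzymes Pfkfb3 (0.44, adjusted p = 0.115) and Pfkfb4 (-0.24, adjusted p = 0.335), which set the level of the activator of phosphofructokinase, were not called. Pfkp overlaps Pitrm1 on the opposite strand over 748 exon bases, so its count may include reads of that gene if strand was not used.

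The other enzymes between glucose phosphate and pyruvate include aldolases, Tpi1, Pgk1, Pgam1 and Pkm. Tpi1, triosephosphate isomerase, had 1251, 1720 and 586 CPM in iTreg KO, 1694, 1927 and 654 in iTreg WT, 74.3, 64.0 and 59.3 in nTreg KO, and 62.9, 49.5 and 57.4 in nTreg WT. Aldoa, the main aldolase of most cells, had 2327, 2910 and 1249 CPM in iTreg KO, 2770, 2944 and 1241 in iTreg WT, 325, 306 and 287 in nTreg KO, and 333, 291 and 295 in nTreg WT. Neither gene's ranges overlapped between the cell types. In iTreg WT over nTreg WT, Tpi1 rose by 4.65 (SE 0.45), the aldolase gene Aldoc by 4.45 (SE 0.52), the ATP-forming kinase gene Pgk1 by 3.81 (SE 0.24), the mutase gene Pgam1 by 3.63 (SE 0.35), the enolase gene Eno2 by 3.17 (SE 0.81), Aldoa by 2.92 (SE 0.33), the pyruvate kinase gene Pkm by 2.76 (SE 0.23) and the isomerase gene Gpi1 by 1.34 (SE 0.24), with adjusted p between 1.29e-07 and 0.00438. All 8 rose in iTreg KO over nTreg KO as well, by 1.04 (Gpi1) to 4.17 (Tpi1). Gapdh, the enzyme before Pgk1, was counted at only 3.56 to 22.7 CPM and was not called (0.88, adjusted p = 0.126). Of its exact 50-base stretches 58.4% recur in 222 other genes, and the same held for 68.0% in Pgk1, 59.1% in Bnip3, 41.5% in Pgam1, 24.5% in Gpi1, 24.4% in Bnip3l and Higd1a, 23.7% in Pkm, 21.0% in Ldhb, 11.4% in Ankrd37 and 10.4% in Ldha. The counts of these genes are therefore uncertain, as the handling of reads with several matches is not given in the sources used here.

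Pyruvate and lactate are turned into each other by lactate dehydrogenase. Ldha, whose subunit favours lactate production, had 2852, 3600 and 1980 CPM in iTreg KO, 3297, 3714 and 2253 in iTreg WT, 493, 430 and 500 in nTreg KO, and 414, 386 and 449 in nTreg WT. Ldhb, whose subunit favours the return of lactate to pyruvate, had 6.26, 8.77 and 9.3 CPM in iTreg KO, 7.05, 8.66 and 8.95 in iTreg WT, 36.2, 34.0 and 37.8 in nTreg KO, and 36.0, 35.1 and 32.0 in nTreg WT. Ldha rose by 2.89 (SE 0.23, adjusted p = 5.55e-07) and Ldhb fell by 2.06 (SE 0.16, adjusted p = 5.74e-07) in iTreg WT against nTreg WT, with no overlap between the cell types. Per kilobase of exon, Ldha exceeded Ldhb 216, 195 and 101 times in iTreg KO and 222, 203 and 119 times in iTreg WT, but 6.47, 5.99 and 6.28 times in nTreg KO and 5.45, 5.21 and 6.65 times in nTreg WT.

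Both lactate transporter genes rose in iTreg. Slc16a3 had 234, 484 and 103 CPM in iTreg KO, 506, 600 and 113 in iTreg WT, 13.0, 13.6 and 13.8 in nTreg KO, and 12.4, 12.9 and 9.96 in nTreg WT. Slc16a1 had 111, 132 and 179 CPM in iTreg KO, 92.9, 134 and 163 in iTreg WT, 60.6, 61.6 and 60.6 in nTreg KO, and 32.2, 36.8 and 39.6 in nTreg WT, and rose in iTreg WT by 1.84 (SE 0.21, adjusted p = 1.1e-05). Per kilobase, the ratio of Slc16a3 to Slc16a1 was 1.75, 3.05 and 0.478 in iTreg KO and 4.54, 3.72 and 0.578 in iTreg WT, against 0.178, 0.184 and 0.19 in nTreg KO and 0.321, 0.291 and 0.209 in nTreg WT. Slc16a1 therefore exceeded Slc16a3 per kilobase in all nTreg libraries and in both iTreg libraries numbered 3. The same count per length put Hk2 at 0.341, 0.691 and 0.547 of Hk1 in iTreg KO and 0.463, 0.507 and 0.346 in iTreg WT, against 0.0997, 0.102 and 0.094 in nTreg KO and 0.0638, 0.053 and 0.0484 in nTreg WT. Hk1 thus was the more abundant hexokinase RNA in every library. Pdk1, a kinase that keeps pyruvate out of mitochondria by inhibiting pyruvate dehydrogenase, was not called in iTreg WT against nTreg WT (0.39, adjusted p = 0.248).

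Of the 5 regulators of HIF, 3 rose and 1 fell in iTreg WT against nTreg WT, and 3 rose and none fell in iTreg KO against nTreg KO. Of all genes tested, 34.8% rose and 30.4% fell for the WT label, and 32.1% and 29.8% for the KO label. Hif1a had 306, 318 and 344 CPM in iTreg KO, 264, 308 and 299 in iTreg WT, 310, 314 and 322 in nTreg KO, and 409, 401 and 361 in nTreg WT. It fell by 0.43 (SE 0.09, adjusted p = 0.00174) in iTreg WT against nTreg WT and was not called in iTreg KO against nTreg KO (0.03, adjusted p = 0.785), and Arnt was called in neither (0.01 and -0.13). Egln1, Egln3 and Vhl, which restrain the HIF1 alpha protein, rose in both. Their relative Egln2, outside these 5 and chosen after its values were seen, did not. It averaged 61.6 CPM in iTreg KO, 59.5 in iTreg WT, 72.5 in nTreg KO and 75.6 in nTreg WT. Egln3 had 312, 669 and 217 CPM in iTreg KO, 397, 627 and 146 in iTreg WT, 10.3, 13.0 and 12.1 in nTreg KO, and 11.5, 10.6 and 15.2 in nTreg WT. Egln1 rose by 1.51 (SE 0.41, adjusted p = 0.00627) and Vhl by 0.61 (SE 0.18, adjusted p = 0.0115) in iTreg WT, and by 1.33 and 0.73 in iTreg KO. Egln3 and Egln1 are themselves known targets of HIF1.

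All 8 other HIF targets were called higher in iTreg WT and 5 of 8 in iTreg KO, against 34.8% and 32.1% of all genes. The libraries of Bnip3l and Kdm3a overlapped between iTreg WT and nTreg WT, with iTreg WT replicate 3 the lowest (114 and 154 CPM). These genes were called for the WT label in 5 and 8 of 16 alternatives. Bnip3 had 113, 170 and 22.2 CPM in iTreg KO, 197, 223 and 21.5 in iTreg WT, 2.9, 2.52 and 2.48 in nTreg KO, and 3.25, 3.54 and 3.26 in nTreg WT. P4ha2 had 13.6, 43.0 and 2.54 CPM in iTreg KO, 31.5, 51.3 and 1.81 in iTreg WT, and at most 0.755 CPM in nTreg, where it had 3, 4 and 7 reads in KO and 1, 5 and 2 reads in WT. For both genes the lowest iTreg libraries were those numbered 3, which still lay above all nTreg libraries. Ankrd37, an ankyrin repeat protein, rose by 2.98 (SE 0.68), Mxi1, an antagonist of Myc, by 2.54 (SE 0.34) and Higd1a, a mitochondrial protein of the hypoxia response, by 2.32 (SE 0.46) in iTreg WT, with adjusted p of at most 0.00214. P4ha1, which encodes another alpha subunit of collagen prolyl hydroxylases, rose by 1.41 (adjusted p = 0.0117), the mitophagy receptor gene Bnip3l by 0.61 (adjusted p = 0.0458) and the histone demethylase gene Kdm3a by 0.57 (adjusted p = 0.025). These last 3 were not called in iTreg KO against nTreg KO, with log2 fold changes of 0.77, 0.29 and 0.16. Without both iTreg libraries numbered 3, P4ha1 (1.05, adjusted p = 0.00928) and Bnip3l (0.478, adjusted p = 0.000763) were called higher there too, while Kdm3a was not.

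Some calls were lost when 1 library was left out, and for Bnip3l and Hk1 this held for several different libraries. Without iTreg WT replicate 2 the adjusted p for iTreg WT against nTreg WT was 0.0789 for Hk1, 0.208 for Bnip3l, 0.084 for Kdm3a, 0.0597 for P4ha1 and 0.0555 for Vhl. Without nTreg WT replicate 1 it was 0.0843 for Bnip3l and 0.0527 for Vhl, without iTreg WT replicate 1 it was 0.138 for Bnip3l and 0.125 for Kdm3a, and without nTreg WT replicate 2 or 3 Bnip3l (0.0955 and 0.111) and Kdm3a (0.0631 and 0.0721) were not called. Without iTreg KO replicate 2 the adjusted p for iTreg KO against nTreg KO was 0.0542 for Slc2a1, 0.0678 for Eno2, 0.0936 for Egln1, 0.111 for Ankrd37 and 0.225 for Hk1. Hk1 was not called there without iTreg KO replicate 1 or any nTreg KO library either (0.0684 to 0.102). In the other direction, Pfkfb3 (0.71, adjusted p = 0.00173) and Pdk1 (0.68, adjusted p = 0.0189) were called higher in iTreg WT without iTreg WT replicate 3, and Gapdh (1.46, adjusted p = 0.0279) in iTreg KO without nTreg KO replicate 1. Without both iTreg libraries numbered 3, Pdk1 was called higher with either label (0.63, adjusted p = 0.000967 in WT and 0.655, adjusted p = 0.000853 in KO). Pfkfb3 was called in WT there (0.658, adjusted p = 0.0033).

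With either label, the iTreg library numbered 3 held less RNA of most of these genes than the other iTreg libraries. The KO and the WT library numbered 3 were both below the other 4 iTreg libraries in 27 of the 36 genes tested, against 16.3% of all genes tested, and both above them in 2, Ldhb and Slc16a1, against 19.3%. By role, both were lowest in 18 of 23 glycolysis genes, 2 of 5 regulators (Egln1 and Egln3) and 7 of 8 other targets. Slc2a3 had 58.8, 382 and 37.2 CPM in iTreg KO and 231, 272 and 36.5 CPM in iTreg WT. Eno2 had 21.9, 130 and 16.9 CPM in iTreg KO and 52.1, 117 and 19.4 CPM in iTreg WT. Pfkl had 277, 421 and 106 CPM in iTreg KO and 399, 433 and 122 CPM in iTreg WT. In each, replicate 3 was lowest with either label, and KO replicate 1 lay between the replicates numbered 3 and the other 3 libraries, as it did in 23 of the 36 genes (63.9%), against 6.84% of all genes. The proliferation markers did not separate the libraries numbered 3, with a summed level of 7516 CPM for KO replicate 3 against 8120 and 7299 CPM for the other KO libraries, and 9070 CPM for WT replicate 3 against 8344 and 9707 CPM. Hif1a was at 344 and 299 CPM in the KO and WT libraries numbered 3, inside or above the span of the other 4 (264 to 318 CPM).

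**Figure D2:**
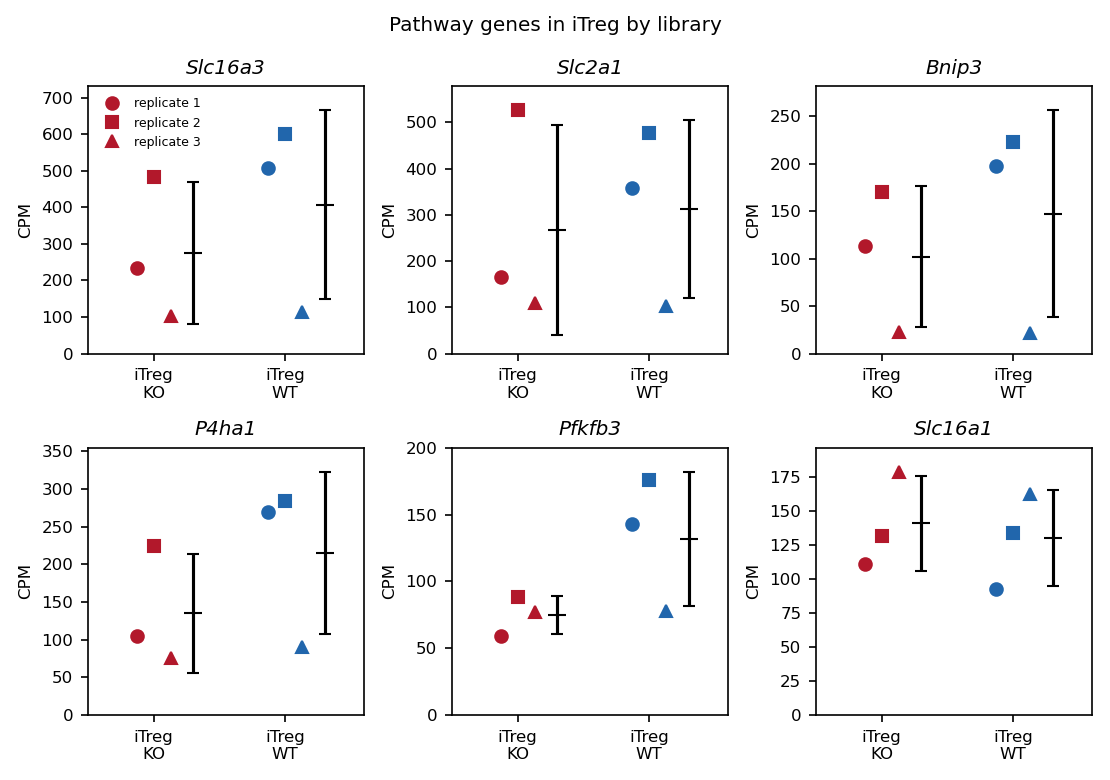
CPM of 6 genes in the iTreg KO (red) and iTreg WT (blue) libraries; circles, squares and triangles are replicates 1, 2 and 3, and the black bars show mean ± SD of 3 libraries. The triangles lie lowest in both groups for Slc16a3, Slc2a1, Bnip3 and P4ha1 and highest for Slc16a1, while for Pfkfb3 the 3 KO libraries (59.5 to 88.0 CPM) lie near WT replicate 3 (77.7 CPM).

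In nTreg, none of the 36 genes was called for KO against WT, against 2.53% of all genes tested, and 2 had an unadjusted p under 0.05, against 13.4%. The median log2 fold change was -0.02, and 0.01 over all genes. The 3 KO and 3 WT libraries did not overlap in 12 of the 36 genes, 6 with KO higher and 6 with KO lower. This is near the share over all genes tested, 29.8%, of which 15.7% had KO higher and 14.1% KO lower. The nTreg libraries lay close together within each group, and the spread used by the test was shared with the iTreg libraries, which lay far apart in these genes. When the replicate number was kept as a block, 4 genes were called, against 9.0% of all genes, and in the 6 nTreg libraries alone 6 were called, against 10.2%. The values that follow describe single genes.

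The 6 genes whose KO libraries all lay higher were Hk2, Pfkl, Pfkp, both lactate transporter genes Slc16a1 and Slc16a3, and Mxi1. The 6 that lay lower were Slc2a3, Hk1, Pdk1, Hif1a, Bnip3 and Kdm3a. Slc16a1 (chr3:104638668-104658462, plus strand) had 60.6, 61.6 and 60.6 CPM in nTreg KO, against 32.2, 36.8 and 39.6 CPM in nTreg WT. Its log2 fold change was 0.75 (SE 0.21, adjusted p = 0.101; 0.000768 with the block). DESeq2 and limma voom called it too, with adjusted p of 0.03 and 0.0147. Slc16a1 was called in 5 of 16 alternatives, with adjusted p up to 0.549, and in none that left out 1 nTreg library. Pfkp (chr13:6579768-6648777, minus strand) had 221, 210 and 197 CPM in nTreg KO, against 140, 125 and 127 CPM in nTreg WT, a log2 fold change of 0.68 (SE 0.40, adjusted p = 0.497; 0.0146 with the block). Hk2 (chr6:82725025-82774454, minus strand) had 15.5, 15.2 and 14.8 CPM in nTreg KO, against 10.2, 8.49 and 8.1 CPM in nTreg WT, a log2 fold change of 0.77 (SE 0.51, adjusted p = 0.558). Hk2 was not called with the block and passed in the 6 nTreg libraries alone (adjusted p = 0.0109). Of the phosphofructokinase subunits, the per-kilobase ratio of Pfkl to Pfkp was 0.77, 0.695 and 0.761 in nTreg KO, against 1.04, 1.1 and 1.1 in nTreg WT.

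Hif1a itself was among the genes whose nTreg KO libraries all lay below the nTreg WT libraries. Hif1a (chr12:73901375-73947530, plus strand) had 310, 314 and 322 CPM in nTreg KO, against 409, 401 and 361 CPM in nTreg WT, a log2 fold change of -0.31 (SE 0.09, adjusted p = 0.146; 0.0349 with the block). It was also called by DESeq2 (adjusted p = 0.00588) and limma voom (0.0195). Hif1a was called in 4 of 16 alternatives, with adjusted p up to 0.753. Pdk1 (chr2:71873224-71903858, plus strand) had 148, 138 and 134 CPM in nTreg KO, against 196, 183 and 215 CPM in nTreg WT, a log2 fold change of -0.51 (SE 0.29, adjusted p = 0.489; 0.0146 with the block). Slc2a3 had 114, 106 and 113 CPM in nTreg KO, against 150, 151 and 140 CPM in nTreg WT, and passed only in the 6 nTreg libraries alone (-0.40, adjusted p = 0.00549). The nTreg libraries of the other 24 genes overlapped between the labels. Aldoa averaged 306 ± 19.0 CPM in nTreg KO and 306 ± 22.9 CPM in nTreg WT. Pkm averaged 468 ± 54.6 CPM in nTreg KO and 499 ± 50.3 CPM in nTreg WT (SD, n = 3 each). The proliferation markers had a median log2 fold change of 0.47, with none of 20 called (6 at an unadjusted p under 0.05; 5 called with the block), and their part in these differences was not tested.

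**Figure D3:**
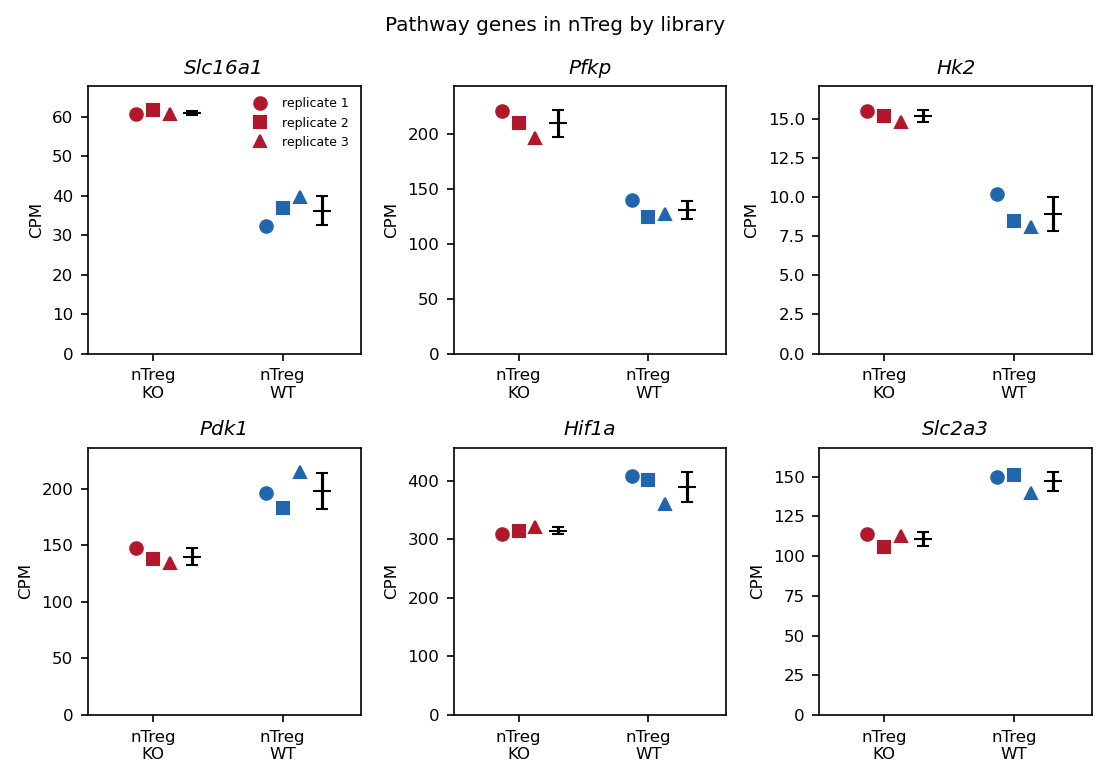
CPM of 6 genes in the nTreg KO (red) and nTreg WT (blue) libraries; circles, squares and triangles are replicates 1, 2 and 3, and the black bars show mean ± SD of 3 libraries. All KO points lie above all WT points for Slc16a1, Pfkp and Hk2 and below them for Pdk1, Hif1a and Slc2a3.

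In iTreg, none of the 36 genes was called for KO against WT, against 0.183% of all genes tested, 2 had an unadjusted p under 0.05, against 7.56%, and the KO and WT libraries overlapped in all 36, while the libraries of 9.62% of all genes tested did not overlap. The estimate was negative for 30 of the 36, with a median of -0.20 against -0.01 over all genes; by role the median was -0.18 for glycolysis genes, -0.04 for regulators and -0.53 for other targets. With the replicate number as a block none was called either, while 16 of the 36 had an unadjusted p under 0.05, 10 of 23 glycolysis genes, 1 of 5 regulators and 5 of 8 other targets, against 17.3% of all genes. In 15 of the 36 genes the KO library lay below the WT library of the same number in all 3 pairs, against 18.6% of all genes, among them Pkm, Pgk1, Tpi1, Slc16a3, Pdk1, Hk1 and P4ha1. In 1, Hif1a, it lay above in all 3 pairs, against 14.1%. The proliferation markers had a negative estimate for all 20 and a median of -0.205, with none called (1 at an unadjusted p under 0.05; 6 with the block), and their part in these differences was not tested. Pfkfb3 had 59.5, 88.0 and 77.3 CPM in iTreg KO, against 143, 176 and 77.7 CPM in iTreg WT (log2 fold change -0.82, SE 0.24, adjusted p = 0.351). Kdm3a had 150, 192 and 141 CPM in iTreg KO, against 301, 267 and 154 CPM in iTreg WT (-0.58, SE 0.20, adjusted p = 0.488). In both genes the lowest WT library was replicate 3. Without iTreg WT replicate 3 both were called lower, Pfkfb3 by -1.09 (adjusted p = 0.014) and Kdm3a by -0.82 (adjusted p = 0.0263), and without both iTreg libraries numbered 3 they were called as well (-1.09 with adjusted p = 0.0189 and -0.71 with adjusted p = 0.0426). Slc16a1 was at 141 ± 34.8 CPM in iTreg KO and 130 ± 35.3 CPM in iTreg WT (SD, n = 3 each).

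**Figure D4:**
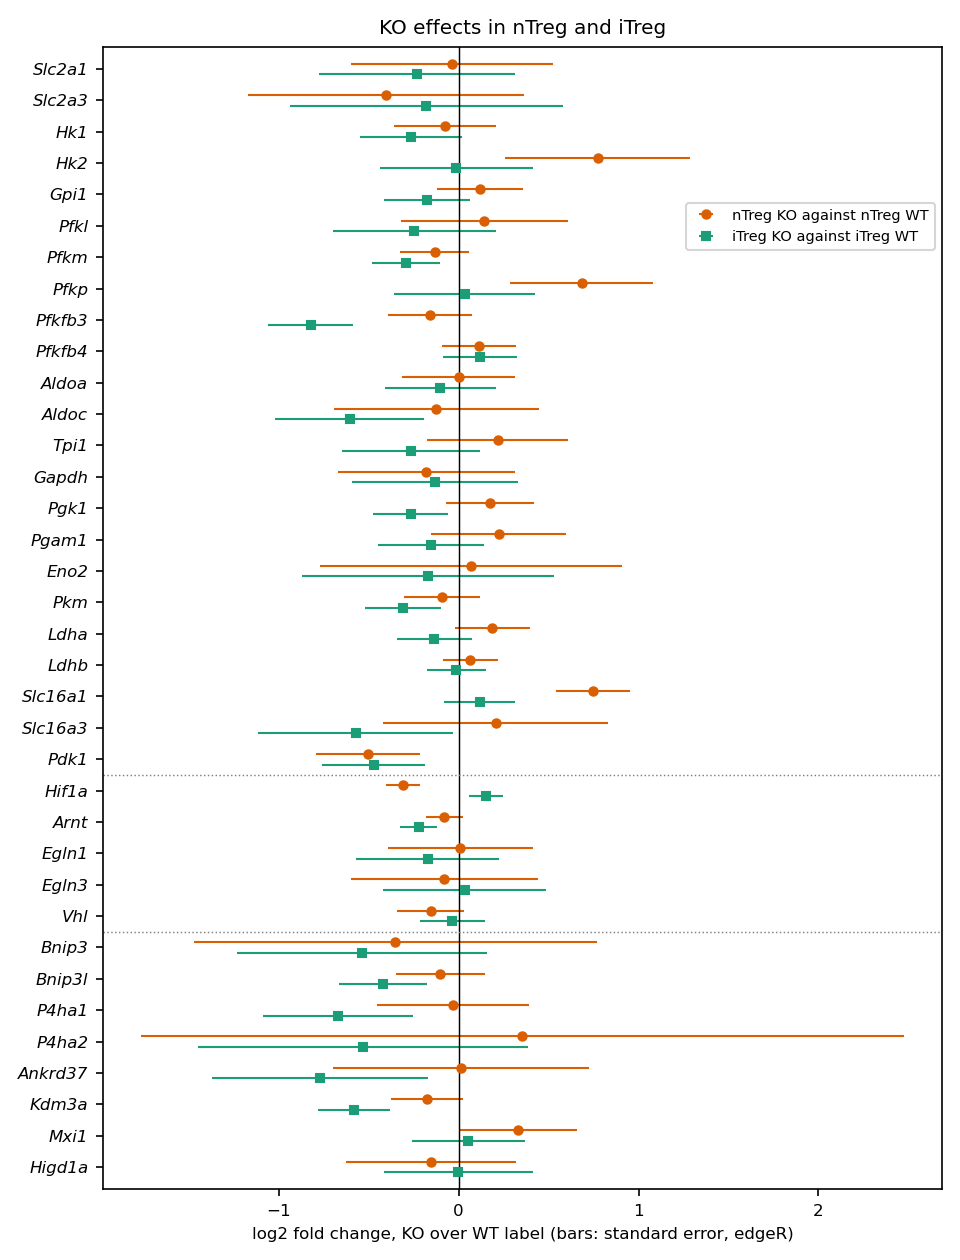
Log2 fold change of KO over WT (x axis) for the 36 genes tested (rows) in nTreg (orange circles) and iTreg (green squares), with bars of 1 standard error from edgeR; dotted lines part glycolysis genes, HIF regulators and other HIF targets. Hk2, Pfkp and Slc16a1 stand to the right of 0 in nTreg, and Pfkfb3 and Kdm3a to the left of 0 in iTreg.

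The KO effects in iTreg and nTreg were also compared directly. None of the 36 genes passed the test of the difference, against 0.291% of all genes tested, and 2 had an unadjusted p under 0.05, against 7.44%. For Slc16a1 the iTreg effect minus the nTreg effect came to -0.63 (SE 0.29, adjusted p = 0.658) and for Hif1a to 0.46 (SE 0.13, adjusted p = 0.285). Slc16a1 passed with the block (adjusted p = 0.0384, against 1.8% of all genes called) and Hif1a with DESeq2 (adjusted p = 0.0157).

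Among 33 further genes of the HIF pathway, 2 rose in nTreg KO against nTreg WT and none fell, against 2.18% of all genes called higher. Vegfa (chr17:46016993-46032369, minus strand), the growth factor of blood vessels, had 25.7, 39.1 and 35.3 CPM in nTreg KO, against 0.886, 0.283 and 0.372 CPM in nTreg WT. Its log2 fold change was 6.06 (SE 0.76, adjusted p = 0.000649). It was called in 15 of 16 alternatives, with an adjusted p of 0.0529 without the libraries that carried Xist RNA. Stc2, a secreted glycoprotein gene that other stresses also induce, had 11.8, 13.2 and 12.8 CPM in nTreg KO, against 0.886, 3.11 and 1.12 CPM in nTreg WT (2.91, SE 0.66, adjusted p = 0.0375). The call for Stc2 was lost when any 1 of the 6 nTreg libraries was left out (adjusted p 0.0523 to 0.204). Ndrg1, a hypoxia-induced gene chosen here after its values were seen, had 55.6, 59.5 and 59.6 CPM in nTreg KO, against 23.0, 25.5 and 26.7 CPM in nTreg WT, and was called with the block and in the 6 nTreg libraries alone, but not in the test over all 12 libraries (1.21, adjusted p = 0.442; 0.00201 with the block). With the block 4 of the 33 genes were higher, against 5.36% of all genes, and none lower, the fourth being Mif, a cytokine gene (0.60, adjusted p = 0.361, and 0.00222 with the block). In iTreg none of the 33 was called, against 0.183% of all genes, with 23 estimates negative and 10 positive. With the block 1 was called lower, Ndrg1 (-0.934, adjusted p = 0.0284), against 0.947% of all genes. Ndrg1 had 74.0, 180 and 27.3 CPM in iTreg KO, against 204, 270 and 45.6 CPM in iTreg WT. Its iTreg effect minus its nTreg effect was called only with the block (-2.15, adjusted p = 0.00402).

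Of the HIF targets described above, Egln3 averaged 11.8 ± 1.38 CPM in nTreg KO and 12.4 ± 2.41 CPM in nTreg WT. P4ha1 averaged 79.1 ± 12.8 CPM in nTreg KO and 80.7 ± 12.5 CPM in nTreg WT. Bnip3 averaged 2.63 ± 0.229 CPM in nTreg KO and 3.35 ± 0.165 CPM in nTreg WT (SD, n = 3 each). The libraries of the first pair of genes overlapped between the labels, and all nTreg KO libraries of Bnip3 lay below the nTreg WT ones. None of the 3 was called. For the 8 other HIF targets, nTreg KO libraries all lay higher in 1 (Mxi1), lower in 2 (Bnip3 and Kdm3a) and overlapped in 5. Of all genes tested, 15.7% lay higher and 14.1% lower. Over the 33 further genes, 21 estimates were positive and 11 negative. Plod2, a further HIF pathway gene, averaged 7.01 ± 0.355 CPM in nTreg KO and 4.25 ± 0.355 CPM in nTreg WT. It was not called (0.70, adjusted p = 0.531). What lies behind these differences was not tested. In iTreg, Vegfa had 96.2, 164 and 60.7 CPM in KO and 149, 145 and 41.8 CPM in WT, with no call (-0.07, adjusted p = 0.991). For Vegfa the iTreg effect minus the nTreg effect came to -6.13 (SE 0.90, adjusted p = 0.0169, and 0.00425 with the block). This difference was called in 11 of 21 alternatives, with adjusted p up to 0.473. Its size rests on nTreg WT levels of at most 0.886 CPM.

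**Figure D5:**
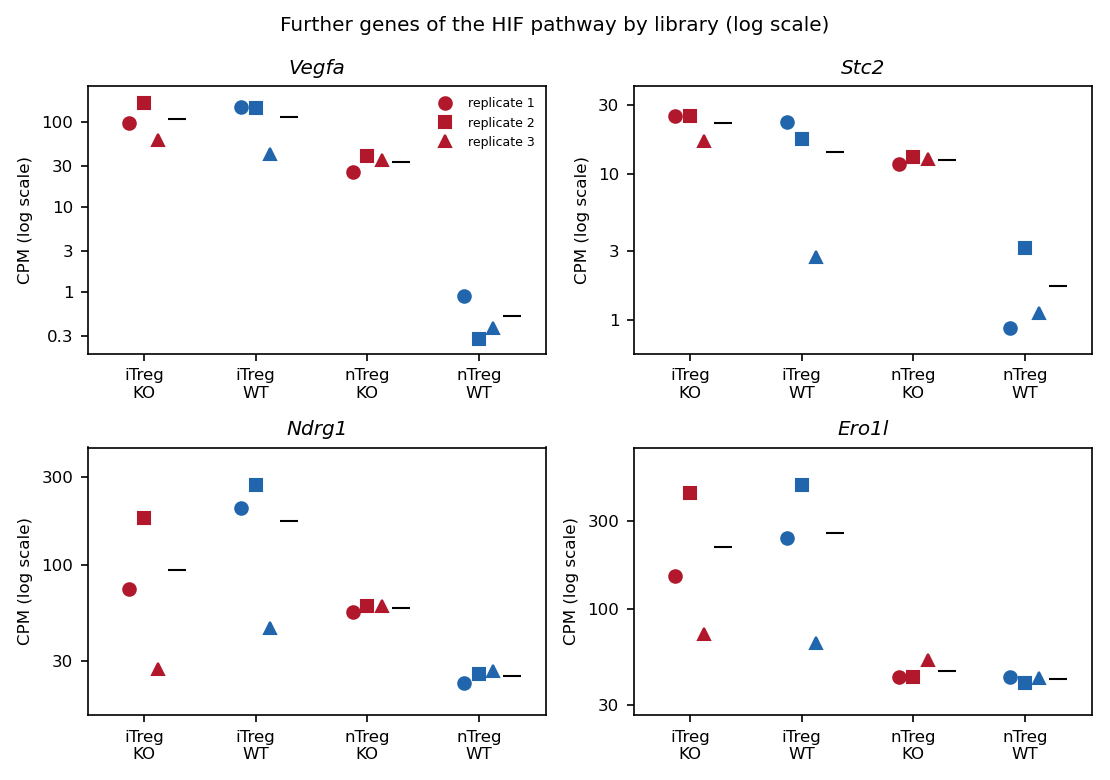
CPM on a log scale for 4 further genes of the HIF pathway in the 4 groups; red marks KO and blue WT, symbols are replicates 1, 2 and 3, and the dash is the mean of 3 libraries, with no error shown. Vegfa, Stc2 and Ndrg1 lie higher in all nTreg KO libraries than in all nTreg WT libraries, while the nTreg groups of Ero1l, an ER oxidase gene chosen after its values were seen, lie side by side (42.3 to 52.8 CPM in KO, 39.6 to 42.4 CPM in WT).

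Lists of neighbouring genes were compared between iTreg and nTreg as well, and their counts stand against 34.8% of all genes higher and 30.4% lower for the WT label. Of 33 further HIF pathway genes, 17 rose and 6 fell in iTreg WT against nTreg WT, among them Tfrc, the transferrin receptor (3.92), Plod2, a lysyl hydroxylase (5.16), and Vegfa (7.80), with Arnt2, a relative of Arnt, lower by -6.39. Of 24 other glycolysis and pyruvate genes tested, 11 rose and 3 fell, with Slc2a6, a hexose transporter, at 3.54 and Pfkfb2 at -0.95. In the pentose phosphate pathway, which branches off glycolysis, 5 of 7 rose and none fell, with Tkt at 1.28, Pgls at 1.01 and G6pdx, the entry enzyme, at 0.82. Of 14 regulators upstream of glycolysis, 4 rose and 7 fell, with the activators Irf4 and Myc at 2.70 and 1.22 and the restraining genes Txnip and Foxo1 at -1.89 and -0.87. The counts of genes that fell in the HIF list and of upstream regulators that rose were thus no larger than these shares. In iTreg KO against nTreg KO, where 32.1% of all genes were higher and 29.8% lower, the counts were 13 higher and 4 lower for HIF pathway genes, 13 and 4 for other glycolysis genes, 6 and none for the pentose phosphate pathway, and 4 and 7 for the upstream regulators. For KO against WT, none of the other glycolysis, pentose phosphate or upstream regulator genes was called in either cell type. In nTreg 2, 1 and 3 of them had an unadjusted p under 0.05 and with the block 1, 0 and 2 were called, against 9.0% of all genes. In iTreg 2, 0 and 1 had an unadjusted p under 0.05 and with the block 2, 0 and 0 were called, against 0.947% of all genes.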

How the data were processed

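Each library has a deposited file of raw read counts by gene symbol, made by the authors. Per the submitters' processing notes, cutadapt 1.13, STAR, HTSeq 0.6.1p1, DESeq2 and the build mm10 were used; strand and multiple-match settings are not given in the sources used here. Tests used edgeR 4.0.16 under R 4.3.3, with the robust quasi-likelihood method, TMM factors and a term per group over the 12 libraries (8 residual degrees of freedom). The filter (minimum count of 10, minimum total of 15) left 12038 genes, over which p was Benjamini-Hochberg adjusted, with 0.05 as threshold. Alternatives used DESeq2 1.42.0, limma 3.58.1, other filters and scaling, the block and left-out libraries. The genes and lists were chosen with earlier results of these data known. All 37 genes are accounted for; of other lists, up to 4 called genes of smallest p are named, plus any upstream regulator. A result this rule would name is not reported here. Other names were chosen after values were seen. Lengths and coordinates are from GENCODE M21 (GRCm38), with length as the union of a gene's exons; promoters are from RefSeq. The test was tried on simulated data. Figures were drawn with matplotlib 3.10.9.

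To see whether numbers pair libraries, each library's deviations from its group mean were correlated over genes. KO and WT libraries with the same replicate number in the labels correlated at 0.438 to 0.572 in nTreg and 0.307 to 0.629 in iTreg (other numbers -0.421 to -0.0544 and -0.519 to 0.135), so a fit with the number as a block inside each cell type, leaving 4 residual degrees of freedom, is given beside KO results. Libraries of nTreg and iTreg with the same number correlated at -0.0539 to 0.0953 and were not taken as pairs.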

Additional observations from a re-analysis of the deposited data

Results flagged for a closer look

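The KO effect on Vegfa differed between the cell types by -6.13 on the log2 scale (iTreg minus nTreg; SE 0.90, adjusted p = 0.0169), by edgeR's test of the difference. In nTreg its log2 fold change was 6.06, with all 3 KO libraries above all 3 WT libraries, and in iTreg it was -0.07, with overlapping libraries. Over 21 alternatives the difference ran between -6.66 and -5.63 and was called in 11, with adjusted p between 1.18e-08 and 0.473. Leaving out any nTreg WT library, nTreg KO replicate 2, iTreg WT replicate 2 or iTreg KO replicate 1 or 3 gave an adjusted p of 0.0541 to 0.0783. Without the libraries with Xist RNA it was 0.473, and without both nTreg libraries numbered 2 it was 0.206. With no filter on low counts it was 0.0845.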

How the results depend on the processing

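Calls among the 36 genes depended on the fit. For nTreg KO against nTreg WT, where 0 were called, 2 were called with DESeq2, 2 with limma voom with quality weights, 4 with the replicate block, 6 in the 6 compared libraries alone and 2 (Slc16a1 and Pdk1) without both iTreg libraries numbered 3. Of all genes, 4.12%, 8.87%, 9.0%, 10.2% and 3.55% were called in these fits, in that order. For iTreg KO against iTreg WT 1 was called with limma voom (Pfkfb3, -1.14), 2 without both iTreg libraries numbered 3, and 0 with the block. The shares of all genes called were 0.274%, 0.616% and 0.947%. For the difference of KO effects 1 was called with DESeq2 and 1 with the replicate block, against 1.16% and 1.8% of all genes. Leaving out 1 library gave 0 to 0 calls for nTreg, 0 to 2 for iTreg (2 without iTreg WT replicate 3) and 0 to 0 for the difference. It gave 24 to 31 for iTreg WT against nTreg WT and 20 to 25 for iTreg KO against nTreg KO, where the block gave 27 and 25. Of all genes, 58.3% to 64.3% and 54.4% to 59.8% were called without 1 library, and 63.4% and 54.2% with the block. The numbers do not pair nTreg with iTreg; with that block Bnip3l (adjusted p = 0.0805), P4ha1 (0.0669) and Kdm3a (0.0522) were not called for the WT label, which left 5 of 8 other targets, and Gapdh was (0.0121). Over all settings tried, none of these members changed direction in a comparison in which it was ever called. Ndrg1, which is not among them, did in iTreg KO against nTreg KO. It stood at -0.21 without iTreg KO replicate 2 and at 1.12 without both iTreg libraries numbered 3. Over all genes, calls for nTreg KO were 304, with 1083 under the block, 496 with DESeq2, 1068 with limma voom and 167 to 216 without 1 library. The fits leaving out both iTreg libraries numbered 3, both nTreg libraries numbered 2, or those with Xist were chosen after seeing the data. Without the libraries with Xist, 20 and 23 of the 36 genes were called in iTreg against nTreg for WT and KO. The shares over all genes there were 48.6% and 51.6%. The causes were not tested.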
